A study of Mus musculus with 21 samples.

Results

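Cytokine receptors and the Janus kinases (JAKs) that signal from them were described by 10 transcripts in spleen T cells of the mouse, sorted into CD4+ and CD8+ populations. The 10 genes were chosen by name, and each had its row in the table of 12994 genes: Il7r, Il2rg, Il2rb, Il4ra, Il21r, Il6ra, Il6st, Jak1, Jak3 and Tyk2. The 21 samples came from 12 female C57BL6/J mice without any engineered allele, which were moved at 4 weeks of age, for 4 weeks, into an enriched environment (EE, large groups in a large cage with running wheels, houses, tunnels and toys) or a standard environment (SE, smaller groups in a smaller cage without objects). There were 6 CD4+ EE, 5 CD4+ SE, 6 CD8+ EE and 4 CD8+ SE samples, and 9 mice, 6 EE and 3 SE, gave both populations. The cells were sorted as CD45+ CD11b- CD3+ cells that carried CD4 or CD8. Per the labels, the mice of each environment shared 1 cage, and a difference between environments cannot be told apart from one between cages.

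Cytokine receptors of T cells work as pairs or triplets of chains, and the chains that signal hold a JAK on their inner side, while alpha chains such as Il6ra and Il2ra bind the cytokine and hold none. The common gamma chain (Il2rg) joins the private chains for IL-7 (Il7r), IL-4 (Il4ra) and IL-21 (Il21r), and with the beta chain (Il2rb) forms the receptor for IL-2 and IL-15. The gamma chain holds JAK3 and its partners hold JAK1. IL-6 binds the alpha chain Il6ra, which then recruits gp130 (Il6st), where JAK1, JAK2 and TYK2 dock. The kinases phosphorylate STAT proteins, which enter the nucleus. In resting T cells, IL-7 is known as a survival signal for both populations, IL-15 chiefly sustains memory CD8+ T cells, and IL-4, IL-6 and IL-21 guide the fates of helper T cells.

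The promoters shown here are those of Il6ra, the 1 member that passed the test between the populations, and of the 3 members whose upstream 250 bases held a RUNX letter pattern, because Runx1 and Runx3 themselves differed between the populations. The letters are the 250 bases before the RefSeq start on GRCm38.p6, read 5′ to 3′ along the gene. Capitals mark the RUNX pattern, TGTGGT or TGCGGT on either strand.
Il6ra promoter (chr3:89913197-89913446, minus strand): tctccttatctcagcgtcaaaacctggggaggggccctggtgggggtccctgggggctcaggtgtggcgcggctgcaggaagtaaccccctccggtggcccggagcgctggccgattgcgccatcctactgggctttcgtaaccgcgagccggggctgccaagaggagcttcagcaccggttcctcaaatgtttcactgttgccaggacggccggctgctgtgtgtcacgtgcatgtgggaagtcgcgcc
Il2rg promoter (chrX:101268256-101268505, minus strand): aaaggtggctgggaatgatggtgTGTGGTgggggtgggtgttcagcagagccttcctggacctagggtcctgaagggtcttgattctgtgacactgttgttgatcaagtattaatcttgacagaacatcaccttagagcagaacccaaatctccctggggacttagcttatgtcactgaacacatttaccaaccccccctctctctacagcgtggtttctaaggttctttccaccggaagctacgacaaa
Il21r promoter (chr7:125603179-125603428, plus strand): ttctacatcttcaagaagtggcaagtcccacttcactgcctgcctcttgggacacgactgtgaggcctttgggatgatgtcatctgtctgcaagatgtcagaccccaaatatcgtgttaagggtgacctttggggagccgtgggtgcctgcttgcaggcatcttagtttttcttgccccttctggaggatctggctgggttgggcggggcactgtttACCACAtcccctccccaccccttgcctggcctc
Tyk2 promoter (chr9:21131276-21131525, minus strand): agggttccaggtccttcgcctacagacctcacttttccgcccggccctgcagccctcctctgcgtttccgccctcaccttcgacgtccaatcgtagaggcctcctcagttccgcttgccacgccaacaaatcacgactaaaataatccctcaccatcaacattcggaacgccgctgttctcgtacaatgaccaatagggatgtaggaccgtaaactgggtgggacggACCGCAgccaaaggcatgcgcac
RefSeq gave a promoter for 9 of the 10 members. The RUNX pattern was in 3 of these 9, and in 18.6% of all 32851 promoters of the same length. It began at position -227 from the start in Il2rg, -33 in Il21r and -23 in Tyk2. The STAT pattern, TTCNNNGAA on either strand, was in 1 of the 9, as TTCAGGGAA at position -142 of Il7r, and in 7.02% of all promoters. The Il6ra window held neither pattern. These are matches of letters only.

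Between 145546 and 221454 molecules were counted per sample, as cDNA copies told apart by a random tag (UMI), and 9302 to 10137 genes were detected. Values are molecule counts divided by the size factor of the sample, called normalised counts here, and differences are on the scale of log2(normalised count + 1), which understates changes of genes with few molecules. Cd4, Cd8a and Cd8b1 matched the label of all 21 samples. Cd8b1 was still counted in every CD4+ sample, at 1.26 to 9.15, against 177 to 243 in the CD8+ samples. The 10 markers of B cells summed to 35.0 to 116 in the CD8+ samples, where Ms4a1 stood at 0, and to 217 to 499 in 10 of the 11 CD4+ samples, with 41.2 in CD4+ SE replicate 1. The 4 haemoglobin markers of red cells summed to 578 in CD8+ EE replicate 6 and 1028 in CD8+ SE replicate 3, and to at most 26.7 elsewhere. A lower value in such pools cannot be split into fewer cells with the transcript and less of it per cell.

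All 10 transcripts were detected in all 21 samples, except Tyk2, which had 0 molecules in CD4+ EE replicate 3. Il7r, Il2rg and Jak1 were counted at 55 to 173 molecules per sample. Fewer molecules stood behind the others, down to 1 molecule of Il2rb, Jak3 or Tyk2 in single samples. Over the 40 combinations of member and group, the SD between samples was 0.410 to 2.21 times the SD that molecule counting alone gives, with a median of 1.20. The ratio was above 2 in 1 combination, Il7r in CD8+ EE cells.

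**Figure D1:**
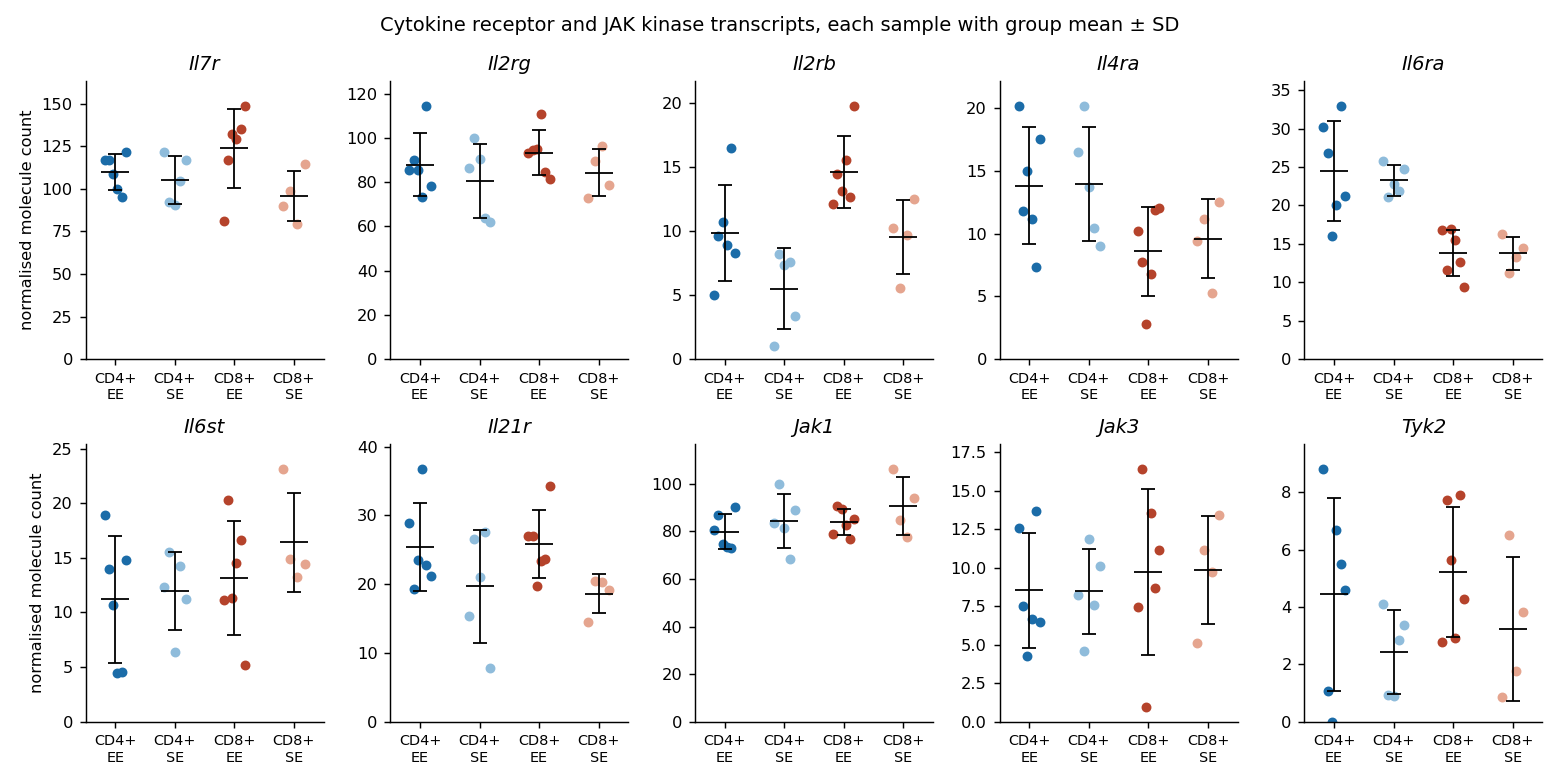
Normalised molecule counts (linear axes from 0) of the 10 transcripts in each sample of the 4 groups, with the group mean (dash) and SD (bar). Il6ra is higher in CD4+ cells, at 16.0 to 32.9 against 9.45 to 16.9 in CD8+ cells, while Il7r, Il2rg and Jak1 did not pass the test between the populations.

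The first comparison asked which of these genes differ between CD4+ and CD8+ T cells. Il6ra was higher in CD4+ T cells, 1.68-fold on the log2(normalised count + 1) scale, and was the only one of the 10 to pass the test over all samples (limma, Benjamini-Hochberg adjusted p under 0.05). Over all 7938 genes tested, 4.4% passed, and 2.33% of all genes tested passed with a higher level in CD4+ cells. At an unadjusted p under 0.05 there were 3 members, Il6ra, Il2rb and Il4ra, against 14.8% of all genes. The median difference of the members was -0.09, with 2 above 0 and 8 below, and that of all genes was -0.01. None of the 10 had CD4+ and CD8+ samples that did not overlap, against 0.869% of all genes.

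Il6ra (ENSMUSG00000027947) encodes the chain that binds IL-6, and lies on the minus strand of GRCm38 at chr3:89864059-89913196. Its normalised count in CD4+ EE cells was 16.0 at the lowest, 24.0 at the median and 32.9 at the highest. In CD4+ SE cells the 5 samples had 25.7, 21.0, 22.9, 21.8 and 24.8. CD8+ EE samples ran from 9.45 over a median of 14.1 to 16.9, and the 4 CD8+ SE samples had 16.3, 11.2, 13.2 and 14.4. Thus 10 of the 11 CD4+ samples were above every CD8+ sample, and CD4+ EE replicate 3, at 16.0, was the exception. The means were 24.0 ± 4.81 (SD, n = 11) in CD4+ and 13.8 ± 2.59 (SD, n = 10) in CD8+ cells. The log2 difference was 0.75 (SE 0.17, 95% interval 0.41 to 1.09, limma adjusted p = 0.00197), the 168th smallest p among all genes. The call held in 21 of 21 fits that each left out 1 sample, and with the mouse as a block it had an adjusted p of 0.0216.

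In mice with both populations, Il6ra was higher in the CD4+ sample in 8 of 9, as the plot of matched samples shows. The median difference within a mouse was 0.74, and the lowest, in EE mouse 3, was -0.07. Within EE the difference was 0.77 (limma adjusted p = 0.0385), and 2.66% of all genes passed there. That call was lost without CD4+ EE replicate 1, 2 or 5, or CD8+ EE replicate 2, 5 or 6 (adjusted p 0.0680 to 0.122), and when genes with a low mean were also tested (adjusted p = 0.0558). Within SE, where 1.51% of all genes passed and no member did, the difference of 0.72 was of similar size with an adjusted p of 0.216. The SE groups did not overlap for Il6ra, alone among the 10, and 3.64% of all genes were apart in this way.

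The summed B-cell markers were also higher in 10 of the 11 CD4+ samples, as given above, and their part in the Il6ra difference was not tested. Without the 2 samples with haemoglobin RNA, the Il6ra difference was 0.69 (limma adjusted p = 0.0112) over both environments and 0.68 (adjusted p = 0.115) within EE. On the opposite strand, the antisense gene Gm42809 at chr3:89912916-89914053 covers the start of Il6ra and the promoter shown above. It had 0 to 6 molecules per sample, 27 over the CD4+ and 15 over the CD8+ samples. The use of strand in counting is not given in the sources used here.

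**Figure D2:**
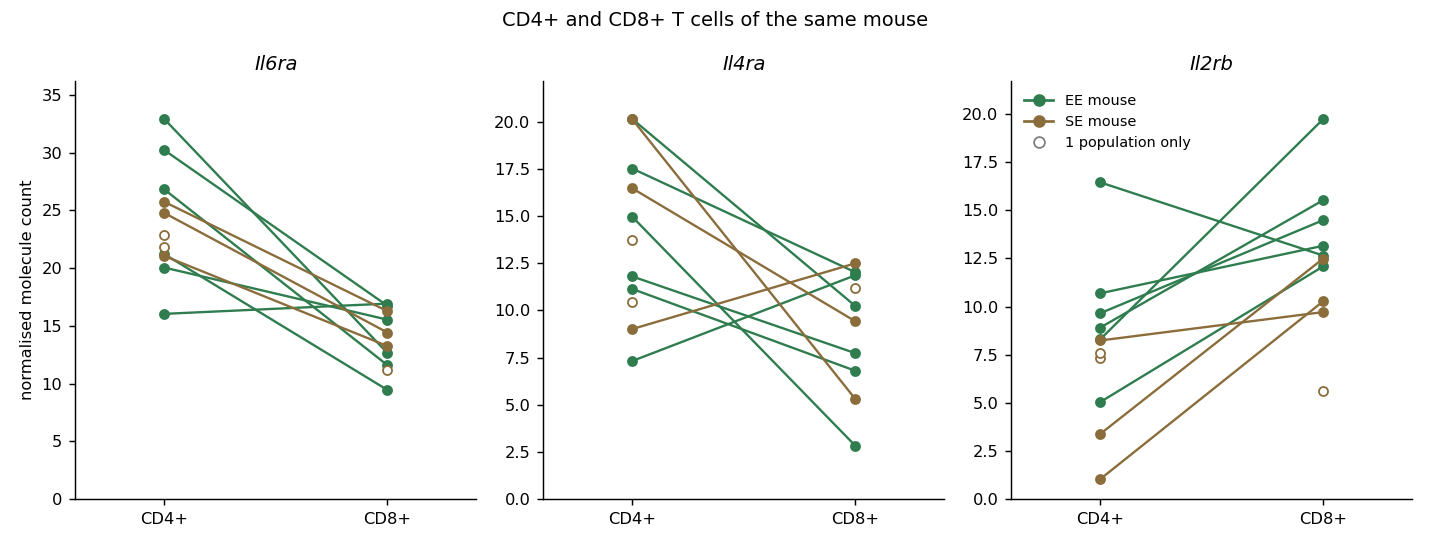
Normalised molecule counts (linear axes from 0) of Il6ra, Il4ra and Il2rb in the CD4+ and CD8+ sample of each mouse, joined by a line (green EE, brown SE), with open circles for mice with 1 population. Lines fall for Il6ra in 8 of 9 mice and for Il4ra in 7 of 9, and rise for Il2rb in 8 of 9.

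The transcripts whose pattern over the 21 samples was most like that of Il6ra, among 2719 genes with a mean above 10, were Cytip, Fyn and Cd6. Likeness was the root mean square difference of log2 values centred on each gene, which was 0.30 for Cytip, 0.31 for Fyn and 0.32 for Cd6, against a median of 0.60 over all genes. Cytip, a partner of the adhesion regulator cytohesin, had means of 73.1 and 74.4 in CD4+ EE and SE cells and 46.0 and 41.5 in CD8+ cells. Fyn, a kinase of the T cell receptor, had 56.3, 56.0, 40.4 and 37.5 in the same order. Cd6, a surface receptor of T cells, had 64.9, 74.1, 37.0 and 42.6.

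Il6st, which encodes gp130, the chain that Il6ra recruits, did not pass the test. Its normalised count was 4.45 to 18.9 (median 12.3) in CD4+ EE cells and 12.4, 15.6, 6.40, 14.2 and 11.3 in CD4+ SE cells. It was 5.15 to 20.3 (median 12.9) in CD8+ EE cells and 23.1, 14.9, 13.2 and 14.4 in CD8+ SE cells. The ranges overlapped widely. The difference was -0.36 (95% interval -0.83 to 0.10, limma adjusted p = 0.507).

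Il2rb (ENSMUSG00000068227, chr15:78479256-78495271, minus strand), the beta chain for IL-2 and IL-15, had its lowest counts in CD4+ SE cells, with 1.03, 8.237, 7.31, 7.60 and 3.38 in the 5 samples. CD4+ EE samples had 5.04 to 16.5 (median 9.28). CD8+ EE samples had 12.1 to 19.8 (median 13.8), and CD8+ SE samples had 10.3, 5.59, 9.71 and 12.5. Only 1 of the 11 CD4+ samples lay above the CD8+ mean, while 9 of 10 CD8+ samples lay above the CD4+ mean. The difference was -0.71 (SE 0.25, 95% interval -1.21 to -0.22), a ratio of 0.611, and its limma adjusted p was 0.0968.

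With the mouse as a block, over the 9 mice with both populations, Il2rb passed the threshold, lower in CD4+ cells, with a difference of -1.01 and an adjusted p of 0.0204. Its count was lower in the CD4+ sample in 8 of 9 mice, EE mouse 5 being the exception. CD4+ SE replicate 1, with 1 molecule, weighed on the value: without it the unblocked difference was -0.53 (adjusted p = 0.241). The block gave the 3 SE mice together the same weight as the 6 EE mice. In SE mouse 1 the Il2rb difference was -2.47, against a median of -0.74 over the 9 mice. A blocked fit without that mouse was not run. The 7 markers of memory-like CD8+ T cells (Eomes, Tbx21, Cxcr3, Ccl5, Nkg7, Ly6c2 and Cd44), all detected in both populations, summed to 16.5 to 195 in CD4+ and 199 to 459 in CD8+ samples. Their part in the Il2rb difference was not tested.

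Il4ra (ENSMUSG00000030748, chr7:125552120-125579474, plus strand), the chain for IL-4, had 7.32 to 20.1 (median 13.4) in CD4+ EE cells and 16.5, 20.1, 13.7, 10.4 and 9.01 in CD4+ SE cells. It had 2.82 to 12.0 (median 8.98) in CD8+ EE cells and 9.42, 11.2, 5.30 and 12.5 in CD8+ SE cells. Of the CD4+ samples, 10 of 11 lay above the CD8+ mean and 6 above every CD8+ sample. The difference of 0.59 (95% interval 0.13 to 1.05) had a limma adjusted p of 0.167, and 7 of 9 mice showed its direction. The part of the B-cell markers in this difference was not tested either.

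Il21r (chr7:125603429-125633570, plus strand), the chain for IL-21, is the neighbour of Il4ra, 24.0 kb further on. It did not pass the test, with 22.8 ± 7.51 (SD, n = 11) in CD4+ and 23.0 ± 5.49 (SD, n = 10) in CD8+ cells and a log2 difference of -0.03 (95% interval -0.38 to 0.31). Il7r (chr15:9505788-9530176, minus strand), the IL-7 receptor, had 108 ± 11.9 (SD, n = 11) and 113 ± 24.3 (SD, n = 10). Its difference of -0.01 had one of the narrowest intervals, -0.20 to 0.18. Il2rg (chrX:101264378-101268255, minus strand), the shared gamma chain, differed by -0.09 (-0.29 to 0.11) between 84.5 ± 15.2 (SD, n = 11) and 89.7 ± 10.8 (SD, n = 10), and by -0.13 to -0.04 with 1 sample left out.

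Of the kinases, Jak1 (chr4:101152367-101265282, minus strand) had 81.9 ± 9.22 (SD, n = 11) in CD4+ and 86.6 ± 8.97 (SD, n = 10) in CD8+ cells, a difference of -0.09 with a 95% interval of -0.28 to 0.10 (-0.12 to -0.05 with 1 sample left out). Jak3 (chr8:71676296-71690575, plus strand), the partner of the gamma chain, had 8.51 ± 3.17 (SD, n = 11) and 9.77 ± 4.50 (SD, n = 10), with an interval of -0.64 to 0.47. Tyk2 (chr9:21104068-21131243, minus strand) had 3.53 ± 2.75 (SD, n = 11) and 4.43 ± 2.45 (SD, n = 10). Its difference of -0.35 ran from -0.51 to -0.14 with 1 sample left out, and was -0.105 with the mouse as a block. The 95% interval of the main fit was -1.08 to 0.38. The interval of Tyk2 thus held a difference as large as that of Il2rb, which those of Jak1, Il7r and Il2rg did not.

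**Figure D3:**
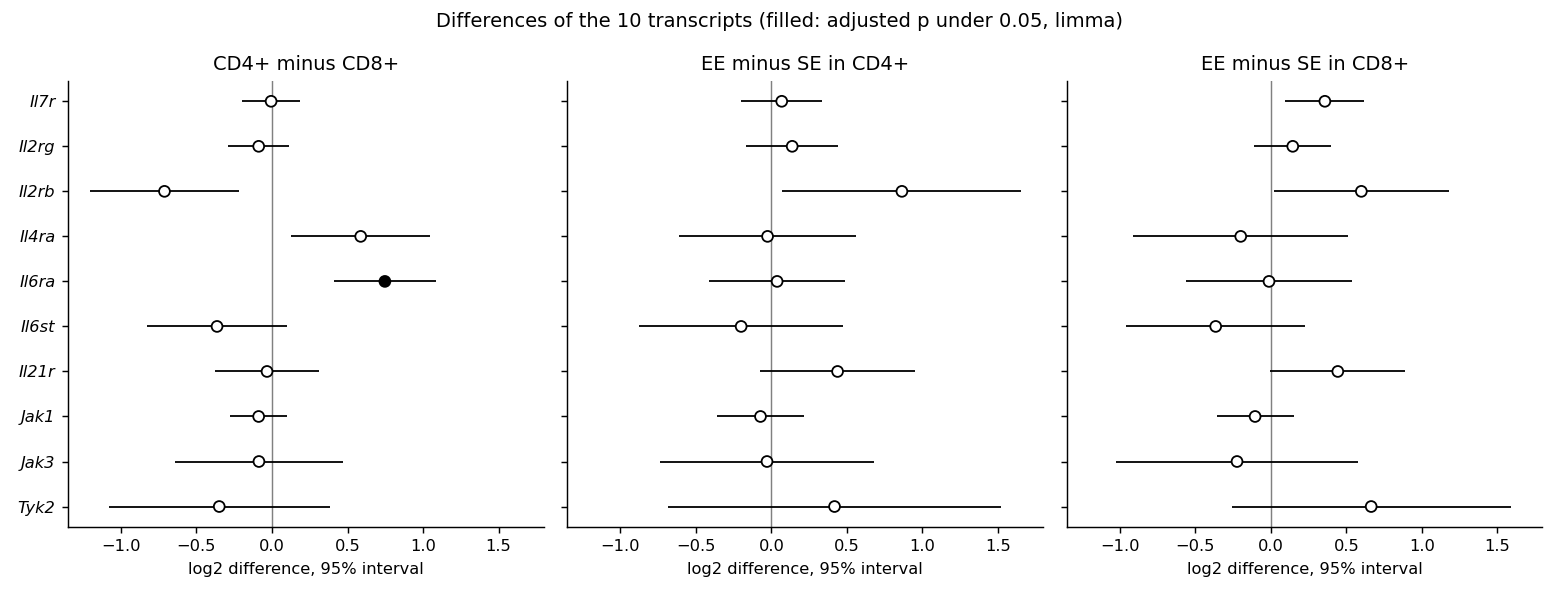
Differences on the log2(normalised count + 1) scale with 95% intervals, for CD4+ minus CD8+ over all samples (left) and for EE minus SE within CD4+ (middle) and CD8+ cells (right). The filled circle marks the 1 member with an adjusted p under 0.05, Il6ra at 0.75 between the populations.

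The order of the 4 groups was taken from their means. Of the 30 gaps between neighbours in these orders, 3 were larger than the larger SD of the neighbours. In Il6ra this was the step from CD4+ SE (23.3 ± 1.97, SD, n = 5) down to CD8+ EE (13.8 ± 3.05, SD, n = 6), whose samples did not overlap. In Il2rb the steps were those from CD8+ EE (14.6 ± 2.81, SD, n = 6) to CD4+ EE (9.84 ± 3.76, SD, n = 6) and from CD8+ SE (9.52 ± 2.88, SD, n = 4) to CD4+ SE (5.51 ± 3.15, SD, n = 5). In the other gaps the neighbours did not differ beyond their spread.

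The second comparison asked whether these transcripts differed with housing within each population. None of the 10 passed the test in either population. In CD4+ cells 1 of 7939 genes passed (0.0126%), S100a6, which is no member and is named after its values were seen. In CD8+ cells 0 of 7840 genes passed (0%) with limma, edgeR or DESeq2. At an unadjusted p under 0.05 there were 462 genes (5.82%) in CD4+ cells, among them Il2rb, and 413 genes (5.27%) in CD8+ cells, among them Il7r and Il2rb. None of the members had EE and SE samples that did not overlap, against 0.453% of genes in CD4+ and 1.06% in CD8+ cells.

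Il2rb had 5.04 to 16.5 in CD4+ EE cells, where 5 of 6 samples lay above all 5 SE samples. The EE minus SE difference was 0.86 (95% interval 0.07 to 1.65, unadjusted p = 0.0329 and adjusted p = 0.823 in limma). Without CD4+ SE replicate 1 it was 0.49. In CD8+ cells, 5 of 6 EE samples lay above all 4 SE samples and the difference was 0.60 (95% interval 0.02 to 1.18, adjusted p = 0.923), with 0.39 to 0.73 when 1 sample was left out. The memory-like markers summed to 25.7 to 195 in CD4+ EE against 16.5 to 89.7 in CD4+ SE cells, and to 321 to 459 in CD8+ EE against 199 to 423 in CD8+ SE cells, and their part in these values was not tested.

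Il7r had 80.9 at the lowest, 131 at the median and 149 at the highest in CD8+ EE cells, and 89.9, 98.7, 79.5 and 114 in the 4 CD8+ SE samples. Of the EE samples, 5 of 6 lay above every SE sample, and EE replicate 1 was close to the lowest. The difference was 0.36 (95% interval 0.10 to 0.62, unadjusted p = 0.00845 and adjusted p = 0.837 in limma), and 0.22 without the 2 samples with haemoglobin RNA. In CD4+ cells the Il7r difference was 0.07 (95% interval -0.20 to 0.34), with 0.02 to 0.12 when 1 sample was left out.

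Il21r had 0.44 in both populations (95% interval -0.08 to 0.95 in CD4+ and -0.0041 to 0.89 in CD8+ cells), with adjusted p of 0.855 and 0.941 in limma. Without CD4+ SE replicate 6 the CD4+ value was 0.16, while the CD8+ value stayed between 0.34 and 0.51 with 1 sample left out. Its CD4+ SE samples had 15.4, 26.5, 21.0, 27.5 and 7.88 against 19.3 to 36.8 in EE, and its CD8+ SE samples had 14.6, 20.5, 20.3 and 19.2 against 19.7 to 34.4 in EE. Both ranges overlapped. For Il2rg the differences were 0.14 in CD4+ cells (0.05 to 0.22 with 1 sample left out) and 0.15 in CD8+ cells (0.08 to 0.21). The Il2rg value in CD8+ cells was 0.248 without the 2 samples with haemoglobin RNA. For Tyk2 they were 0.42 and 0.66 with wide intervals that held 0. With 1 sample left out Tyk2 ran from 0.17 to 0.83 in CD4+ and from 0.33 to 1.01 in CD8+ cells, and in CD4+ cells it was 0.847 with edgeR and 0.886 with DESeq2. Those of Il4ra (-0.03 and -0.20), Il6st (-0.20 and -0.36), Jak1 (-0.07 and -0.10) and Jak3 (-0.03 and -0.22) were below 0 in both, and those of Il6ra were 0.04 and -0.01. The sign of Il4ra, Il6ra and Jak3 turned in both populations under at least 1 alternative. Il6st ran from -0.39 to -0.00092 in CD4+ and from -0.50 to -0.14 in CD8+ cells with 1 sample left out. Il4ra in CD8+ cells was -0.541 without the 2 samples with haemoglobin RNA, and Jak3 in CD8+ cells was -0.0143 with edgeR. Jak1 ran from -0.14 to -0.0099 in CD4+ and from -0.17 to -0.03 in CD8+ cells with 1 sample left out. The sign was the same in both populations for 9 of the 10, against 51.3% of 7348 genes, and since most of the CD4+ and CD8+ samples came from the same mice this count has no test.

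The third comparison asked whether the housing difference itself differed between the populations. No gene passed this interaction test in limma, edgeR or DESeq2, and 393 genes (4.95%) had an unadjusted p under 0.05 in limma. None of the 10 members was among them. Their interaction values ran from -0.29 for Il7r (95% interval -0.67 to 0.09) to 0.26 for Il2rb (-0.73 to 1.26). The Il7r value was -0.149 without the 2 samples with haemoglobin RNA. With the mouse as a block the Il2rb value was 0.858 (adjusted p = 0.886), and without CD4+ SE replicate 1 it was -0.106.

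The other genes of the pathway were taken from lists chosen with earlier results of these data known. Of 63 such genes in the table, 48 had enough molecules to be tested between CD4+ and CD8+ cells, and 4 passed, 1 higher and 3 lower in CD4+ cells, against 4.4% of all genes tested. The median difference of the 48 was 0.02, against -0.01 over all genes. Of the receptor genes in the gamma-chain and gp130 groups that were not members, Crlf2 (the receptor for TSLP), Il27ra (for IL-27) and Il11ra1 (for IL-11) had differences of 0.25, -0.29 and 0.02 that did not pass.

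Runx3, a factor of the CD8 lineage, and Runx1, its relative, differed in opposite directions. Runx3 had 2.52 to 9.65 in the CD4+ samples and 12.1 to 32.6 in the CD8+ samples, without overlap. Its difference was -1.72 (SE 0.23, limma adjusted p = 7.24e-08). Runx1 had 12.8 ± 4.62 (SD, n = 11) in CD4+ and 5.45 ± 2.55 (SD, n = 10) in CD8+ cells, a difference of 1.11 (SE 0.26, adjusted p = 0.00291), and was higher in the CD4+ sample of all 9 mice. Eomes, a factor of memory CD8+ T cells, was lower in CD4+ cells by a difference of -1.34 (adjusted p = 0.0225), at 0 to 2 molecules in CD4+ and 1 to 9 in CD8+ samples. Without CD8+ SE replicate 1 its adjusted p was 0.0966. The other 5 regulators tested, Ets1, Foxo1, Foxp1, Gabpa and Klf2, had differences of -0.09 to 0.21 that did not pass.

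Among 9 genes known to respond to gamma-chain cytokines, Pim2, a survival kinase, passed. It had 14.5 ± 6.71 (SD, n = 11) in CD4+ and 28.2 ± 7.22 (SD, n = 10) in CD8+ cells, and its difference was -1.01 (SE 0.19, limma adjusted p = 0.000173). Its values overlapped between the populations, and it was lower in the CD4+ sample in 8 of 9 mice. The survival genes Bcl2 and Mcl1 had differences of 0.08 and 0.09. Cish, which encodes a STAT5 feedback inhibitor, had 3.10 in CD4+ and 0.834 in CD8+ cells on average, with a difference of 1.06 and an adjusted p of 0.129, and passed when CD4+ EE replicate 6 was left out.

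None of the 4 JAKs, 7 STATs or 15 inhibitors tested passed between the populations. Jak2, the fourth kinase, had 1 to 8 molecules in CD4+ and 0 to 8 in CD8+ samples and a difference of -0.26 (95% interval -0.95 to 0.42, and -0.49 to -0.17 with 1 sample left out). The STATs ran from -0.29 for Stat6 to 0.37 for Stat5b. Of the 6 receptor genes for interferons and IL-10, 0 passed, and Ifngr1 came closest with -0.64 (adjusted p = 0.0649). Ifngr1 passed with the mouse as a block (adjusted p = 0.0403) and in 4 of 21 fits with 1 sample left out (adjusted p 0.00383 to 0.205 over the 21), those without CD4+ EE replicate 3, CD4+ SE replicate 4 or 6, or CD8+ EE replicate 6.

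**Figure D4:**
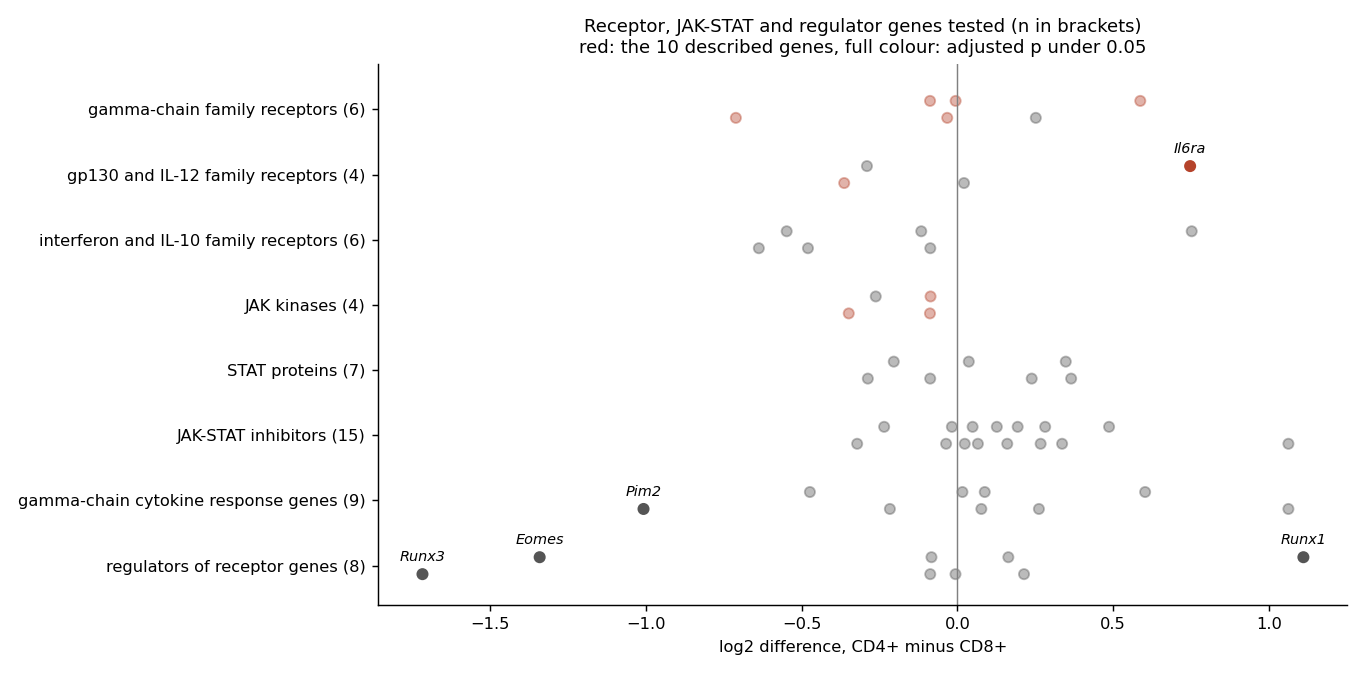
Difference CD4+ minus CD8+ (log2 scale) of each tested gene, 1 row per list, with the 10 described genes in red, the others in grey and genes with an adjusted p under 0.05 in full colour. Only Il6ra, Runx1, Runx3, Eomes and Pim2 are in full colour, from -1.72 for Runx3 to 1.11 for Runx1.

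The 6 receptor chains with too few molecules for the main test were described by their counts. Detected in both populations were Il15ra, with mean normalised counts of 1.45 in CD4+ and 1.07 in CD8+ cells, Il12rb1 (0.698 and 0.255), Csf2ra (0.184 and 0.436) and Il3ra (0.551 and 0.828). The other two had 0 molecules in CD8+ cells. Il2ra, the alpha chain that makes the IL-2 receptor high in affinity and a marker of regulatory T cells, had 21 molecules in 5 of 11 CD4+ samples and 0 in the 10 CD8+ samples. Pooled over the samples, per total molecules, this was at least 7.25-fold higher in CD4+ cells, with 3 molecules over the CD8+ group as the floor. CD4+ EE replicates 2 and 5 held 8 and 6 of the 21 molecules. Without the filter on means, Il2ra was tested and did not pass (limma adjusted p = 0.0633). Il9r, the IL-9 receptor, had 12 molecules in 6 of 11 CD4+ samples and 0 in CD8+ samples, pooled at least 4.14-fold higher. It did not pass without the filter either (limma adjusted p = 0.0991). The 5 regulatory T cell markers, Il2ra among them, summed to 18.4 to 70.8 in CD4+ and 12.6 to 23.3 in CD8+ samples.

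Housing gave no pathway gene past the adjusted threshold in either population. At an unadjusted p under 0.05, 1 of 45 pathway genes was found in CD4+ cells and 2 of 46 in CD8+ cells, against 5.82% and 5.27% of all genes. Of these, 1 had a difference above 0 and 2 had one below 0. Ifngr1, a chain for interferon gamma, had 17.7 ± 4.05 (SD, n = 6) in CD4+ EE and 13.0 ± 9.98 (SD, n = 5) in CD4+ SE cells, a difference of 0.69 (adjusted p = 0.835 in limma). The SE samples ran from 3.09 in replicate 1 to 29.3 in replicate 6, and the difference was 0.32 without replicate 1 and 1.04 without replicate 6. Ifnar2, a chain for type I interferon, had 12.0 to 20.3 in CD8+ EE cells and 21.4, 20.5, 26.5 and 23.1 in CD8+ SE cells. These samples did not overlap, as was so for 1.06% of all genes tested there. The Ifnar2 difference was -0.60 (adjusted p = 0.920 in limma). Ifngr2 had 5.88 ± 3.78 (SD, n = 6) and 9.70 ± 1.46 (SD, n = 4) there, a difference of -0.80 (adjusted p = 0.923).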

How the data were processed

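The data were RNA sequencing of spleen CD4+ and CD8+ T cells on an Ion Proton instrument. Per the study's methods and the submitters' processing notes, the authors trimmed reads with cutadapt, aligned them with STAR 2.4.0a to mm10 (GRCm38), counted UMIs with the Drop-seq tools on Ensembl gene models, removed impure samples and low-abundance genes, and normalised with DESeq2. The deposited signal is thus a molecule count divided by a size factor, and division by the smallest positive value of each sample gave whole molecules for 100% of values (tolerance 0.001). Depth was 145546 to 221454 molecules per sample, which limits genes of few molecules.

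The members and gene lists were chosen with earlier results of these data known. Groups were taken from the sample labels. The main test was limma 3.58.1 (R 4.3.3, trend, two-sided, Benjamini-Hochberg over all genes) on log2(normalised count + 1) for genes with a mean above 2. CD4+ minus CD8+ (the mean of both environments, and each environment) and the interaction were fitted over all 21 samples, and EE minus SE within each population. Alternatives were a pseudocount of 0.5, no filter, a mean above 10, samples rescaled to 1 total, edgeR 4.0.16 and DESeq2 1.42.0 on recovered molecules, a replicate block, each sample left out and, added after seeing the data, omission of the 2 samples with haemoglobin RNA. The scripts were tested on simulated data.

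Genes named are the members, every listed pathway gene with an adjusted p under 0.05 between the populations or an unadjusted p under 0.05 between environments, and the 3 genes nearest in pattern to a called member. Pathway genes that did not pass are given as examples of their lists. The CD4+ and CD8+ samples of a mouse were paired by the labels, which give the same animal number. Deviations from the group means correlated within a mouse at a mean r of 0.0140 over 9 pairs (7938 genes). All 46 pairs of samples within a group differed beyond sampling noise. Where nothing names separate sorts or days, p-values measure the spread between samples from mice of 1 cage per environment. The main test between the populations counts both samples of a mouse as separate. The serial numbers that end the sample titles are lower in SE than in EE, except for CD8+ SE replicate 6, which has the highest. What this order stands for is not given, and its part in the differences was not tested. Positions are from GENCODE M21 (GRCm38), promoters from RefSeq (GRCm38.p6). Tables and figures were made in Python 3.11.15 (NumPy 2.4.6, pandas 2.3.3, Matplotlib 3.10.9).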

Additional observations from a re-analysis of the deposited data

Results flagged for a closer look

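Il6st, the gp130 chain, had a normalised count of 23.1 (27 molecules) in CD8+ SE replicate 1, far above the other 3 CD8+ SE samples at 13.2 to 14.9. The gap to the nearest sample was 0.833 of the range of the group, just past Dixon's 95% critical value for 4 samples. Of the 40 combinations of member and group examined this way, 1 was past its value, and chance gives about 2.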

How the results depend on the processing

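Of 758 recomputed differences of the 10 members, 704 kept their direction and side of the threshold, and 40 group levels moved by less than their SD when samples were rescaled to 1 total. Over both environments, Il6ra kept its call between CD4+ and CD8+ cells under every alternative run (adjusted p 0.000821 to 0.0216). Within EE its call was lost without a filter (adjusted p = 0.0558), without the 2 samples with haemoglobin RNA (0.115) and in 6 of 21 fits with 1 sample left out. Il2rb passed with the mouse as a replicate block (difference -1.01, adjusted p = 0.0204) and under no other alternative. The block changed no other call of a member. Limiting the test to genes with a mean above 10, which tests fewer genes, left 216 genes between the populations (99 higher and 117 lower in CD4+ cells, against 185 and 164) and 76 within SE. For EE minus SE in CD4+ cells, the count was 0 with a pseudocount of 0.5 (439 at an unadjusted p under 0.05), 3 without a filter, 0 with a mean above 10 (191), 2 with edgeR, 0 with a replicate block by animal number (450), and 0 to 3 with 1 sample left out (0 without CD4+ EE replicate 2, 4 or 5 or CD4+ SE replicate 1 or 5, 2 without CD4+ EE replicate 3 and 3 without CD4+ EE replicate 1). In CD8+ cells it was 3 without a filter, 2 with that block, and 0 to 3 with 1 sample left out (1 without CD8+ EE replicate 3 or 4, 2 without CD8+ SE replicate 1 and 3 without CD8+ SE replicate 6). None of these were members, and the cause was not tested. The animal number marks different mice in EE and SE, whose deviations correlated at a mean r of 0.0083 (CD4+) and 0.0052 (CD8+).

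The recomputed differences covered 34 results of the members. Interactions were among them only for Il7r and Il2rb, and differences within EE or SE only for Il6ra. In these, the sign turned in 45 recomputed differences of 10 results, none of which had passed. Results outside this count could turn too, such as the Jak3 interaction, at -0.244 to 0.447 with 1 sample left out. Il7r between the populations was 0.0122 after rescaling to 1 total and 0.0379 with the block. Il21r was 0.0274 with edgeR, 0.0335 with DESeq2 and 0.0305 without the 2 samples with haemoglobin RNA. For EE minus SE, Il4ra in CD4+ cells was 0.00384 with the block, Jak3 in CD4+ cells was 0.00753 with edgeR and 0.0160 with DESeq2, and Il6ra in CD8+ cells was 0.00223 with edgeR and 0.0696 without those 2 samples. With 1 sample left out, differences ran from -0.0641 to 0.0390 (Il7r), -0.105 to 0.105 (Il21r) and -0.306 to 0.0109 (Jak3) between the populations. For EE minus SE they ran from -0.157 to 0.128 (Il4ra), -0.0521 to 0.147 (Il6ra) and -0.207 to 0.123 (Jak3) in CD4+ cells, and from -0.431 to 0.0440, -0.101 to 0.0834 and -0.476 to 0.215 in CD8+ cells. The Il2rb interaction ran from -0.106 (without CD4+ SE replicate 1) to 0.474, and was 0.858 with the mouse as a replicate block (adjusted p = 0.886). The cause was not tested.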
